A study of Mus musculus with 12 samples.

Results

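The 9 genes described here, Gata3, Bcl11b, Tox, Ets1, Ets2, Runx1, Runx3, Myb and Satb1, are transcription factors of T lineage commitment, chosen by symbol from the 39017 genes of the count table. All 9 passed the filter on low counts that left 16024 genes for testing. RNA was sequenced from LSK cells (Lin- Sca1+ cKit+), the bone marrow fraction that holds the hematopoietic stem cells and multipotent progenitors of the mouse. There were 12 libraries in 4 groups of 3, all from C57BL/6J; Sv/129 mice that had received poly(I:C) at 2 ug per g of body weight, and all of batch 1. The group NICD_TCFKO carried R26 N1IC lox/+ and Tcf7 lox/lox with Mx1Cre, and its LSK cells were also gated as CD45.2+ eGFP+. The group NOTCHWT_TCFKO carried Tcf7 lox/lox with Mx1Cre, without that extra gate. The group NICD_TCFWT carried R26 N1IC lox/+ with Mx1Cre and was gated as CD45.2+ eGFP+ LSK. The group NOTCHWT_TCFWT was wild type and received poly(I:C) as a control. Mx1Cre is a recombinase driven by an interferon-responsive promoter, so recombination after poly(I:C) is not limited to one blood lineage, and the wild-type mice had no Cre. N1IC is the intracellular part of Notch1, which is active without a ligand, and Tcf7 encodes TCF-1. The eGFP gate went with labelled N1IC in every library, so the gate and N1IC cannot be told apart. The labels give neither the age of the animals nor whether replicates were separate mice. Despite the single batch label, sample numbers in the column names repeat between some libraries. They repeat between NOTCHWT_TCFWT 1 and 3, NICD_TCFWT 1 and 3, and NICD_TCFWT 2 and NICD_TCFKO 3. Whether these were separate sequencing runs is not stated and was not tested.

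As background, a progenitor that reaches the thymus meets Notch ligands, and Notch1 signalling there switches on Tcf7 and then Gata3, which together open the T cell program. Bcl11b follows later, closes the alternative fates and marks commitment, while Runx1, Myb, Ets factors and Satb1 are already transcribed in stem and progenitor cells and take on new targets in T cell precursors. In LSK cells of a healthy bone marrow the early T lineage factors are therefore low and Bcl11b is close to silent.

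Several libraries went against their labels or stood apart. Tcf7 averaged 603 ± 300 CPM in the libraries labelled NICD_TCFKO, 1.28 ± 1.31 in NOTCHWT_TCFKO, 5.50 ± 1.11 in NICD_TCFWT and 14.8 ± 4.54 in NOTCHWT_TCFWT (CPM, reads per gene scaled to a common library size; SD, n = 3 each), so it was highest where the label gives its loss. Counts per gene do not show whether the floxed exons were transcribed. Notch1 averaged 774 ± 160, 149 ± 46.7, 180 ± 19.9 and 571 ± 44.4 CPM in the same order, and the Notch target Hes1 averaged 158 ± 56.3, 7.67 ± 5.60, 4.54 ± 2.94 and 177 ± 47.8 CPM. Both were thus lower in libraries labelled NICD_TCFWT than in those labelled NOTCHWT_TCFWT, where N1IC should be absent. Dtx1, also chosen as a check of the labels, differed from NOTCHWT_TCFWT by log2 -9.39 ± 0.57 (SE) in NICD_TCFWT. That difference was -8.67 ± 0.54 in NOTCHWT_TCFKO and 0.50 ± 0.34 in NICD_TCFKO. Every direction given below holds only between libraries so labelled. Y-linked transcripts were unevenly spread over the groups: they reached 153.9 to 354.9 CPM in NICD_TCFKO 1, NOTCHWT_TCFKO 1 and 3 and NICD_TCFWT 1 and 2, and were near 0 in the other libraries, all of wild type included. Library NICD_TCFKO 1 had the lowest value of its group for 7 of the 9 genes. Library NOTCHWT_TCFKO 1 had both Xist (2156 CPM) and Y-linked transcripts. Library NOTCHWT_TCFKO 2 had the highest summed granulocyte and monocyte markers (9272 CPM) and erythroid markers (1212 CPM) of the 12, and the lowest value of its group for 5 of the 9 genes. Totals ranged from 30453271 to 43790674 counts per library.

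RefSeq start-site windows on GRCm38.p6, which run from 250 bases before a start site to 50 bases after it, were at hand for 7 of the 9 genes. The upstream 250 bases are shown for Bcl11b and Gata3, whose levels differed most between the groups, and for the more distal of the 2 start sites of Runx1, the gene lowered in both single-label groups. Capitals mark the hexamer CTTTGA of TCF and LEF factors. All are on the minus strand: chr12:108003415-108003664 for Bcl11b, chr2:9878601-9878850 for Gata3 and chr16:92826075-92826324 for Runx1.
Bcl11b: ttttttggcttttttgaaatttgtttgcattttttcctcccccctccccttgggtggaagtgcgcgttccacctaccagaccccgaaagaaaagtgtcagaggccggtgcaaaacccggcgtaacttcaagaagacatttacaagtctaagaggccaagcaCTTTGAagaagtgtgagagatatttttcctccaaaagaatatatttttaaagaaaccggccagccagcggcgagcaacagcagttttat
Gata3: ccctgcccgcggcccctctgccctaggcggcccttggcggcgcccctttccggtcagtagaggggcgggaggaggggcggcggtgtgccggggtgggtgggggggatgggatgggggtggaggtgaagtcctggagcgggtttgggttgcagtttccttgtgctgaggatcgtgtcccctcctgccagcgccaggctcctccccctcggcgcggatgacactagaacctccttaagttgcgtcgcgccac
Runx1: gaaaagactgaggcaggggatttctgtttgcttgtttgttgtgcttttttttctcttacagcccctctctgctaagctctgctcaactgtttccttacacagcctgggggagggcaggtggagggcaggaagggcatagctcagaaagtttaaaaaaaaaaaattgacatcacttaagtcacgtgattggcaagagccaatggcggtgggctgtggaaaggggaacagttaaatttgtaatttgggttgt
Both strands of each window were searched for short motifs. TGGGAA stood for RBPJ, the DNA-binding partner of Notch. CTTTGA with its variant form CTTTGT stood for TCF and LEF factors. For RUNX factors the letters were TGTGGT with its variant form TGCGGT. For GATA factors they were AGATAA with its variant form TGATAA. None of these hexamers overlapped another in the windows shown. The Bcl11b window held CTTTGA at -89 to -84, counted from 0 at the start site, and the Gata3 window held none of the hexamers. Of all 32851 windows 31.2% held a TCF and LEF hexamer, 25.6% TGGGAA, 22.4% a RUNX hexamer and 18.6% a GATA hexamer, so a single match is common. Past its start site, at +26 to +43, the distal Runx1 window held a pair of RUNX hexamers, read on the opposite strand, in an 18-base stretch that the distal Runx3 window also holds at -136 to -119 (chr4:135120509-135120526, plus strand). It is shown because these relatives share it letter for letter while their levels followed different patterns.
Runx1 and Runx3: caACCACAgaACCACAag
The stretch stood in 4 of the 32851 windows, those of Runx1, Runx2 and Runx3 and that of Gm16225, which overlaps the Runx3 window on the other strand. A match is a description of the letters only.

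Gata3, the zinc finger factor needed from the earliest T cell precursors on, was several-fold higher in the libraries labelled NICD_TCFKO than in each of the other groups. It had 32.8, 68.7 and 52.0 CPM in NICD_TCFKO, 10.5, 8.18 and 12.7 CPM in NOTCHWT_TCFKO, 12.9, 10.6 and 10.7 CPM in NICD_TCFWT and 19.3, 13.3 and 12.04 CPM in NOTCHWT_TCFWT. No library of the other groups reached the lowest NICD_TCFKO library, and the other 9 libraries overlapped. Against NICD_TCFWT the fold was 4.49 (log2 2.17 ± 0.28 SE, edgeR quasi-likelihood adjusted p = 0.00107), against NOTCHWT_TCFKO 4.90 (log2 2.29 ± 0.28, edgeR adjusted p = 0.00045) and against NOTCHWT_TCFWT 3.44 (log2 1.78 ± 0.27, edgeR adjusted p = 0.00539). Without library NICD_TCFKO 1 the log2 fold changes were 2.40, 2.52 and 2.03. In whole-cell RNA of a sorted pool, fewer cells that transcribe a gene and less of its RNA per cell cannot be told apart.

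Bcl11b, the commitment factor, was close to silent in 9 of the 12 libraries and present in the 3 labelled NICD_TCFKO. It had 712, 3564 and 3803 counts in NICD_TCFKO, against 3, 37 and 0 in NOTCHWT_TCFKO, 23, 18 and 14 in NICD_TCFWT and 12, 2 and 31 in NOTCHWT_TCFWT. On the scaled library size that was 17.8, 86.3 and 94.7 CPM in NICD_TCFKO and at most 0.98 CPM in any other library. Library NICD_TCFKO 1 was well below the other 2 of its group and still far above the rest. The fitted log2 fold change was 7.07 ± 1.23 against NICD_TCFWT (edgeR adjusted p = 0.00745), 7.56 ± 1.27 against NOTCHWT_TCFKO (0.00442) and 7.38 ± 1.26 against NOTCHWT_TCFWT (0.0117). The size of these ratios rests on few counts in the lower groups: without NOTCHWT_TCFKO 2, which held 37 of the 40 Bcl11b counts of its group, the value against that group was 10.66, without NOTCHWT_TCFKO 3 it was 6.93, and without NOTCHWT_TCFWT 3 the value against wild type was 8.26. Without NOTCHWT_TCFWT 1 the call against wild type was lost (adjusted p = 0.0590). It was lost in limma-voom as well (0.0794), and with only those groups in the fit the adjusted p against NOTCHWT_TCFKO stood at the threshold of 0.05 and did not pass. A covariate for Y-linked transcripts took the value against NICD_TCFWT to 5.96.

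Ets1, an ETS factor of lymphocytes and of the thymus, was also highest in NICD_TCFKO, with smaller differences than Gata3 and Bcl11b. It had 67.8, 125 and 160 CPM in NICD_TCFKO, 32.0, 47.2 and 41.9 CPM in NOTCHWT_TCFKO, 35.9, 29.0 and 32.8 CPM in NICD_TCFWT and 44.7, 47.5 and 43.8 CPM in NOTCHWT_TCFWT. All 3 NICD_TCFKO libraries lay above the other 9. The fold was 3.61 against NICD_TCFWT (log2 1.85 ± 0.26, edgeR adjusted p = 0.00215), 2.92 against NOTCHWT_TCFKO (log2 1.54 ± 0.26, 0.00355) and 2.60 against NOTCHWT_TCFWT (log2 1.38 ± 0.26, 0.0148). The call against wild type was lost without NOTCHWT_TCFWT 1 (adjusted p = 0.0614) or 3 (0.0645) and with only those groups in the fit (0.0775), and the call against NOTCHWT_TCFKO was lost with only those groups in the fit (0.0510). Its relative Ets2, an ETS factor induced by growth factor signalling, did not follow it. Ets2 had 27.4, 17.8 and 22.7 CPM in NICD_TCFKO, 28.9, 28.2 and 33.9 CPM in NOTCHWT_TCFKO, 34.7, 31.7 and 27.2 CPM in NICD_TCFWT and 23.0, 26.6 and 21.8 CPM in NOTCHWT_TCFWT. The NICD_TCFKO and wild-type libraries overlapped, and no Ets2 contrast between a pair of groups passed the threshold; the largest difference was -0.46 ± 0.16 on the log2 scale against NICD_TCFWT (edgeR adjusted p = 0.0800). Without NICD_TCFKO 1 it was -0.62 (0.0232), and against NOTCHWT_TCFKO -0.59 (0.0259); DESeq2 with all libraries also called both (0.0345 and 0.0422).

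Tox, an HMG box factor of developing T cells and innate lymphoid precursors, was higher in NICD_TCFKO than in NOTCHWT_TCFKO. It had 30.7, 43.6 and 38.9 CPM in NICD_TCFKO, 13.4, 8.31 and 25.3 CPM in NOTCHWT_TCFKO, 30.3, 23.5 and 18.9 CPM in NICD_TCFWT and 30.4, 27.1 and 25.3 CPM in NOTCHWT_TCFWT. The NICD_TCFKO libraries did not overlap with any other group, though the lowest of them, 30.7 CPM, lay next to the highest wild-type one. Tox was called only against NOTCHWT_TCFKO, with a fold of 2.41 (log2 1.27 ± 0.34, edgeR adjusted p = 0.0281). That call was lost without NICD_TCFKO 2 (0.0838), NICD_TCFKO 3 (0.0651) or NOTCHWT_TCFKO 1 (0.0918), and with only those groups in the fit (0.110). The log2 differences of 0.64 ± 0.34 against NICD_TCFWT and 0.45 ± 0.33 against NOTCHWT_TCFWT did not pass (edgeR adjusted p = 0.235 and 0.480). Library NOTCHWT_TCFKO 3 decided the other Tox values of its group: without it, Tox was lower in NOTCHWT_TCFKO than in wild type by -1.31 on the log2 scale (adjusted p = 0.00536), against -0.82 ± 0.34 with it (0.114), and lower than in NICD_TCFWT by -1.14 (0.0217), against -0.63 ± 0.34 with it (0.299). DESeq2 called the difference from wild type with all libraries (0.0459).

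**Figure D1:**
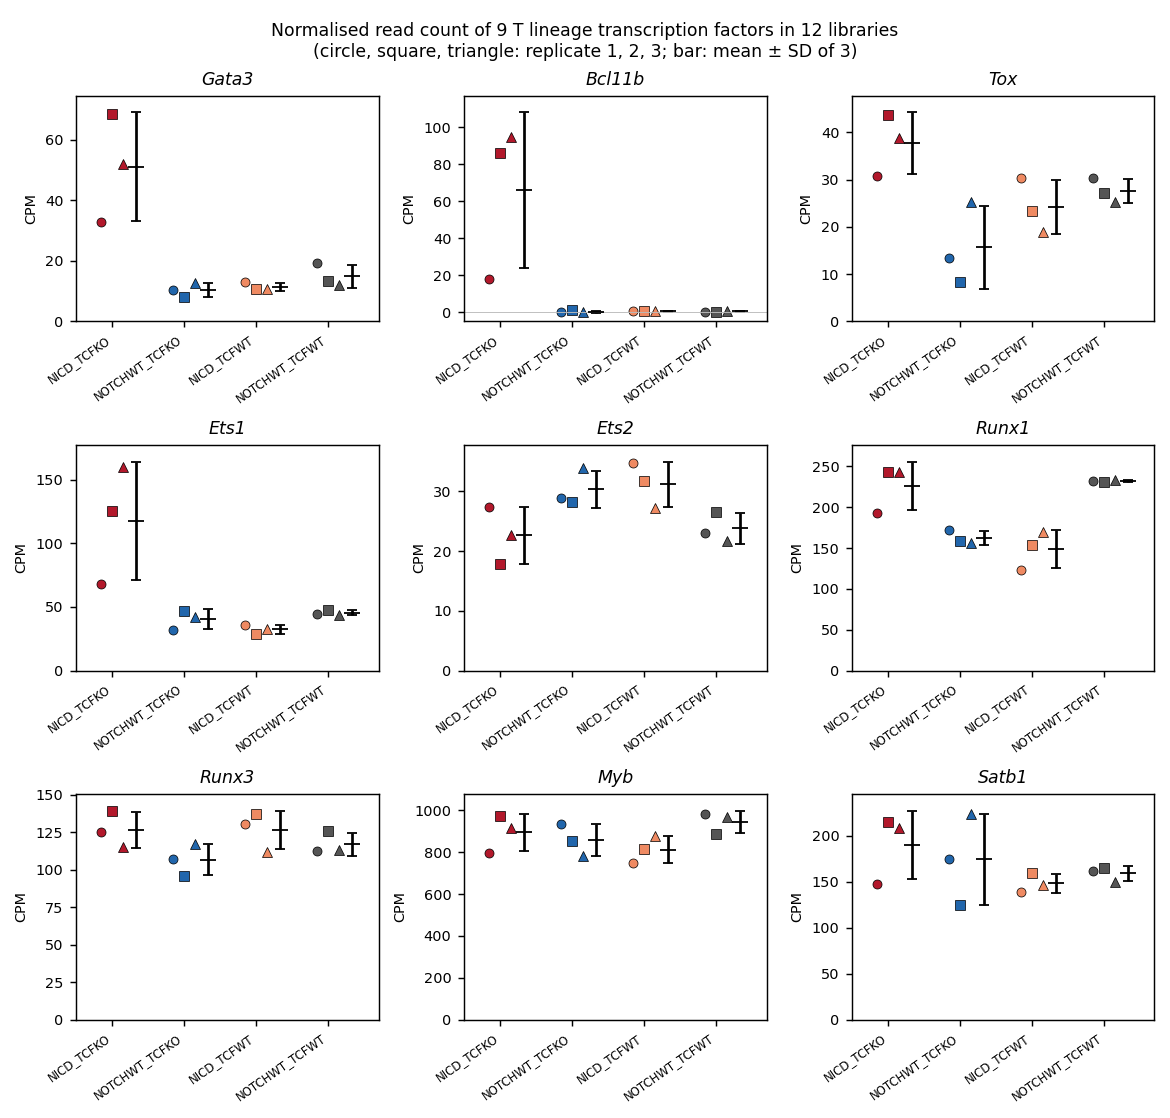
Normalised read count (CPM) of each of the 9 genes in the 12 libraries, by labelled group; circle, square and triangle are replicates 1, 2 and 3, and the bar is the mean ± SD of 3. Gata3, Bcl11b and Ets1 are highest in the 3 NICD_TCFKO libraries, with replicate 1 the lowest of them, and Runx1 is lowest in NOTCHWT_TCFKO and NICD_TCFWT.

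Runx1, which stem cells need to arise and which acts with its partner CBF-beta in T cell precursors, showed another pattern: similar in NICD_TCFKO and wild type, and lower in both groups with a single label. It had 193, 243 and 244 CPM in NICD_TCFKO, 172, 158 and 156 CPM in NOTCHWT_TCFKO, 124, 153 and 169 CPM in NICD_TCFWT and 232, 231 and 233 CPM in NOTCHWT_TCFWT. Neither single-label group overlapped with NICD_TCFKO or with wild type. Relative to wild type Runx1 fell by 0.52 on the log2 scale in NOTCHWT_TCFKO (SE 0.12, edgeR adjusted p = 0.0103) and by 0.64 in NICD_TCFWT (SE 0.12, edgeR adjusted p = 0.00386). In NICD_TCFKO it was higher than in NICD_TCFWT by 0.61 ± 0.12 (0.00891) and higher than in NOTCHWT_TCFKO by 0.48 ± 0.12 (0.0179), and its difference from wild type was -0.03 ± 0.12 (0.909), with an approximate 95% interval of -0.26 to 0.20. The call between NICD_TCFKO and NOTCHWT_TCFKO was lost without NICD_TCFKO 2 (0.0733), NICD_TCFKO 3 (0.0653) or NOTCHWT_TCFKO 2 (0.0567), and with only those groups in the fit (0.0581).

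Runx3, a RUNX factor of cytotoxic and innate lymphocytes, Myb, which stem cell self-renewal and T cell precursors both depend on, and Satb1, an organiser of chromatin loops in thymocytes, passed in no contrast. Runx3 had 125, 139 and 115 CPM in NICD_TCFKO, 107, 95.9 and 117 CPM in NOTCHWT_TCFKO, 130, 137 and 112 CPM in NICD_TCFWT and 112, 126 and 113 CPM in NOTCHWT_TCFWT. Myb had 798, 971 and 918 CPM in NICD_TCFKO, 936, 854 and 783 CPM in NOTCHWT_TCFKO, 746, 814 and 878 CPM in NICD_TCFWT and 982, 886 and 970 CPM in NOTCHWT_TCFWT. Satb1 had 148, 215 and 209 CPM in NICD_TCFKO, 176, 125 and 224 CPM in NOTCHWT_TCFKO, 140, 160 and 146 CPM in NICD_TCFWT and 162, 166 and 150 CPM in NOTCHWT_TCFWT. The groups overlapped for all 3 genes, except that each Myb value in NICD_TCFWT lay below each wild-type one. The approximate 95% intervals use a normal quantile and so are somewhat too narrow. They are only a rough guide to what could have been missed. NICD_TCFKO against NICD_TCFWT, the log2 difference was 0.0035 for Runx3 (-0.20 to 0.21), 0.14 for Myb (-0.05 to 0.33) and 0.36 for Satb1 (-0.01 to 0.74). For Satb1 a rise of more than 1.5-fold therefore lay inside the interval.

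Levels compared between genes per kilobase of exon put Myb far above the rest, at 100 ± 9.87 CPM per kb in NICD_TCFKO and 106 ± 5.87 in wild type. Runx3 followed with 25.3 ± 2.40 in NICD_TCFKO and 23.4 ± 1.53 in wild type, then Runx1 with 18.8 ± 2.44 and 19.3 ± 0.09 in the same order. The change of rank lay below these. In NICD_TCFKO Ets1 (13.9 ± 5.49), Gata3 (12.9 ± 4.52), Satb1 (10.02 ± 1.94) and Bcl11b (8.17 ± 5.20 CPM per kb) did not differ beyond their spread, and Tox (4.96 ± 0.86) and Ets2 (3.91 ± 0.82) stood last. In wild type Satb1 stood at 8.37 ± 0.42, Ets1 at 5.35 ± 0.23, Ets2 at 4.11 ± 0.44, Gata3 at 3.74 ± 0.98, Tox at 3.62 ± 0.34 and Bcl11b at 0.05 ± 0.04 CPM per kb. Gata3, Ets2 and Tox did not differ beyond their spread there. In the libraries labelled NICD_TCFKO Bcl11b per kilobase was thus among the other factors, and in wild type it was below all of them.

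By count, 4 of the 9 genes were higher in NICD_TCFKO than in NICD_TCFWT and none was lower, where 12.4% of all tested genes were called. Against NOTCHWT_TCFKO 5 were higher and none lower (18.4% of all tested genes called), and against NOTCHWT_TCFWT 3 were higher and none lower (6.30%). Without NICD_TCFKO 2 or 3 the count against NOTCHWT_TCFKO was 3, with only those groups in the fit it was 1, and without NOTCHWT_TCFWT 1 the count against wild type was 1. The median log2 difference of the 9 genes was 0.61 against NICD_TCFWT, 0.48 against NOTCHWT_TCFKO and 0.26 against NOTCHWT_TCFWT, and that of all tested genes was at most 0.011 from 0. These contrasts share the NICD_TCFKO libraries. Among the other pairs, 1 gene, Runx1, was lower in NICD_TCFWT than in wild type (20.4% of all tested genes called) and the same gene was lower in NOTCHWT_TCFKO than in wild type (21.3%), again against shared libraries. With only those groups in the fit Ets1 was also called in NICD_TCFWT, lower by -0.47 (adjusted p = 0.0140), and likewise without NICD_TCFKO 1 (0.0486). Between NOTCHWT_TCFKO and NICD_TCFWT edgeR called none of the 9 (2.87%); at an unadjusted p under 0.05 edgeR and DESeq2 each had 1, Runx3, and limma-voom had 2, Tox and Runx3.

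**Figure D2:**
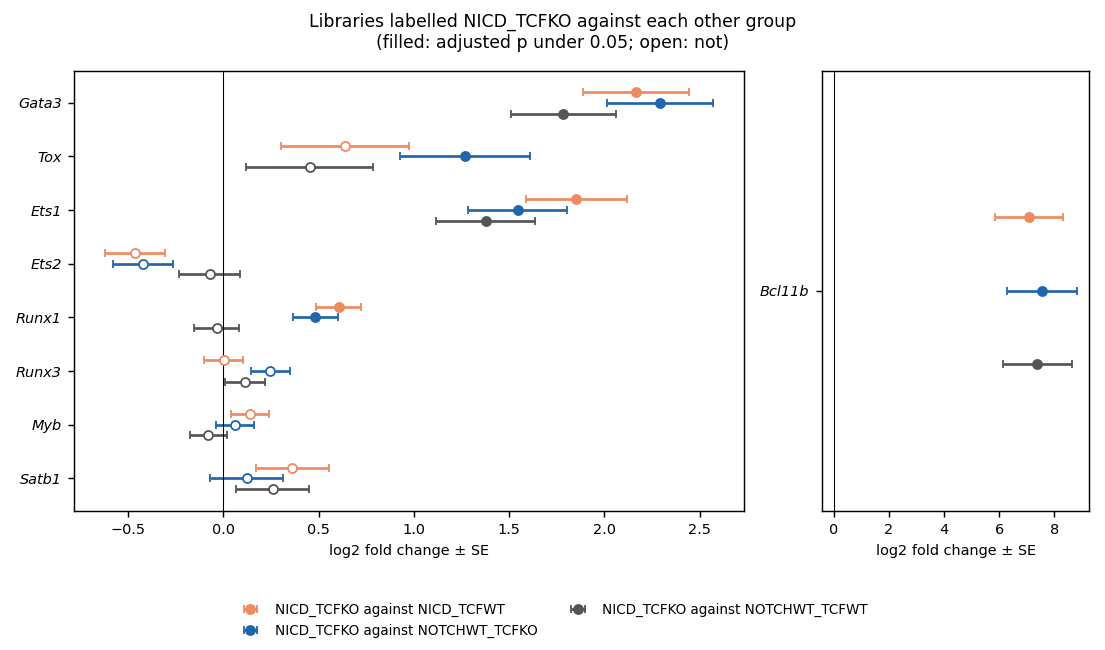
Log2 fold change ± SE (edgeR) of the 9 genes in libraries labelled NICD_TCFKO against each other group, with Bcl11b on its own axis; filled points have an adjusted p under 0.05. Gata3, Bcl11b and Ets1 are filled in all 3 contrasts, Runx1 in 2 and Tox in 1.

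The difference between the effect of labelled Tcf7 loss with N1IC and the effect without it was tested as an interaction. It passed for 6 of the 9 genes, where 27.4% of all tested genes passed. Labelled Tcf7 loss went with more Gata3 in N1IC libraries (2.17 ± 0.28) and with a value of -0.51 ± 0.27 without N1IC (adjusted p = 0.210), an interaction of 2.67 ± 0.39 (edgeR adjusted p = 0.000638). The interaction was 2.02 ± 0.37 for Ets1 (0.00269) and 1.12 ± 0.17 for Runx1 (0.000712), the gene that passed in both directions: 0.61 with labelled N1IC and -0.52 without. For Ets2 it was -0.81 ± 0.22 (0.0203), from -0.46 ± 0.16 with labelled N1IC and 0.35 ± 0.16 without, neither of which passed alone; a covariate for Y-linked transcripts took it to -0.53 (0.0914). For Bcl11b it was 7.26 ± 1.67 (0.0111), and it was lost in limma-voom (0.156) and without NOTCHWT_TCFWT 3 (6.37, 0.0613), while without NOTCHWT_TCFKO 2 it was 10.38 and without NOTCHWT_TCFKO 3 it was 6.62. For Tox it was 1.45 ± 0.48 (0.0444), and 10 of 20 alternatives lost it, with adjusted p up to 0.0948. Runx3, Myb and Satb1 did not pass (adjusted p = 0.530, 0.157 and 0.580). Because the labels and the Tcf7 and Notch1 levels are at odds, the interaction describes labelled groups, not known genotypes.

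**Figure D3:**
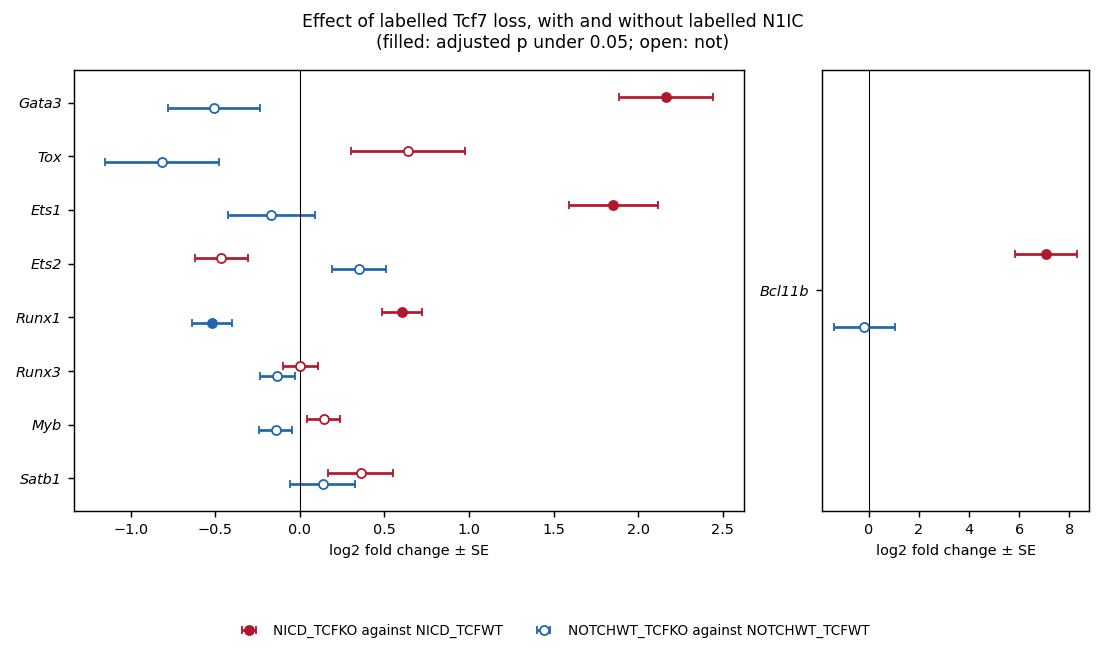
Log2 fold change ± SE (edgeR) of labelled Tcf7 loss in libraries labelled with N1IC (NICD_TCFKO against NICD_TCFWT) and without it (NOTCHWT_TCFKO against NOTCHWT_TCFWT); filled points have an adjusted p under 0.05. Runx1 is filled on both sides of 0, at 0.61 and -0.52, and Bcl11b is shown on its own axis.

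Most genes of a list of T lineage genes, here called target genes, were higher in the libraries labelled NICD_TCFKO. Whether any of the factors described here acts on them was not tested. Of 20 such target genes 19 were tested, and 16 were higher and none lower in NICD_TCFKO than in NICD_TCFWT; the median log2 difference of the list was 3.53, and 12.4% of all tested genes were called in this contrast. Il2ra, the CD25 chain of early T cell precursors, had 802 ± 438 CPM in NICD_TCFKO and 0.26 ± 0.13 CPM in NICD_TCFWT (log2 11.59 ± 1.09, edgeR adjusted p = 0.000403). Cd5, a brake on T cell receptor signalling, had 17.7 ± 8.37 and 1.03 ± 0.05 CPM in the same order (4.10 ± 0.44, edgeR adjusted p = 0.000381), and its relative Cd6 had 26.8 ± 10.5 and 2.81 ± 0.80 CPM (3.25 ± 0.39). Thy1, a surface protein of T lineage cells, had 154 ± 63.6 and 16.9 ± 4.73 CPM (3.19 ± 0.37). Against NOTCHWT_TCFKO 14 of the 19 were higher and none lower (18.4% of all tested genes called), and against NOTCHWT_TCFWT also 14 and none (6.30%). That last count was 5 without NOTCHWT_TCFWT 1 or 3, and 7 without NOTCHWT_TCFWT 2, NICD_TCFKO 2 or NICD_TCFKO 3; with only the groups of the contrast the count against NOTCHWT_TCFKO was 9. Library NICD_TCFKO 1, the lowest for Gata3, Bcl11b and Ets1, also had the lowest summed level of the list in its group, 1137 CPM against 2755 and 2046 CPM in the other 2; the sums were 204.5 to 356.5 CPM in NOTCHWT_TCFKO, 287.5 to 319.1 in NICD_TCFWT and 539 to 646 in NOTCHWT_TCFWT. The list moved both ways against wild type: in NOTCHWT_TCFKO 3 were higher and 6 lower (21.3% of all tested genes called), and in NICD_TCFWT 3 were higher and 5 lower (20.4%). In NICD_TCFWT the 3 became 1 without NICD_TCFWT 1 or 3 or any 1 wild-type library, and the 5 became 2 without NICD_TCFWT 3 or NOTCHWT_TCFWT 1 and 3 without NICD_TCFWT 2.

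Of the 18 other regulators of T cell specification, 7 were higher and none lower in NICD_TCFKO than in NICD_TCFWT, where 12.4% of all tested genes were called, 1161 of them higher and 825 lower. Among the 7, Hdac7 stood at the threshold (0.45 ± 0.13, edgeR adjusted p = 0.0499). Notch3, a Notch receptor gene that Notch1 itself switches on, had 89.9 ± 38.5 CPM in NICD_TCFKO and 3.97 ± 0.73 CPM in NICD_TCFWT (log2 4.50 ± 0.42, edgeR adjusted p = 0.000242). Ikzf2, which encodes Helios, had 206 ± 10.2 and 122 ± 8.31 CPM in the same order (0.75 ± 0.08, edgeR adjusted p = 0.000418), and, like Runx1, it was lower in both single-label groups than in wild type, by -1.16 ± 0.08 in NOTCHWT_TCFKO and -1.10 ± 0.08 in NICD_TCFWT. Unlike Runx1, it was also called lower in NICD_TCFKO than in wild type (-0.35 ± 0.08, edgeR adjusted p = 0.0294), a call lost in 7 of 21 alternatives, among them those without NICD_TCFKO 1 or 2, NOTCHWT_TCFKO 1 or NOTCHWT_TCFWT 1 or 2 (adjusted p up to 0.0893). Of 21 progenitor factors that T cell commitment normally shuts off, 2 were higher and 5 lower in NICD_TCFKO than in NICD_TCFWT, against the same 12.4%. The first count was 1 without any 1 of the NICD_TCFWT libraries, NICD_TCFKO 2 or NICD_TCFKO 3. Flt3, a cytokine receptor of multipotent progenitors, fell to 119 ± 17.2 CPM in NICD_TCFKO, against 548 ± 28.8 CPM in NICD_TCFWT (log2 -2.20 ± 0.30, edgeR adjusted p = 0.00199), and Lmo2, a stem cell and T-ALL oncogene factor, to 242 ± 104 CPM, against 763 ± 54.2 CPM (-1.66 ± 0.26, 0.00334). Mycn, a MYC family gene, was higher at 162 ± 21.3 CPM, against 42.6 ± 9.56 CPM (1.92 ± 0.22, 0.000599). Libraries labelled wild type held 54.9 ± 16.8 CPM of Flt3 and 216 ± 13.6 CPM of Mycn. For these genes NICD_TCFKO thus lay nearer to the libraries so labelled than NICD_TCFWT did. Of the 19 tested family relatives and partners of the 9 genes, 2 were higher and none lower in that contrast, a share near that of all tested genes. These were Cbfb, the RUNX partner (0.38 ± 0.09, edgeR adjusted p = 0.0229), and Elf4, an ETS factor named here after its value was seen (0.30 ± 0.09, edgeR adjusted p = 0.05 after rounding). No call on either was left without any 1 of the NICD_TCFWT libraries or without NICD_TCFKO 2, and 1 was left without NICD_TCFKO 3, NOTCHWT_TCFKO 1, NOTCHWT_TCFWT 1 or NOTCHWT_TCFWT 3.

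**Figure D4:**
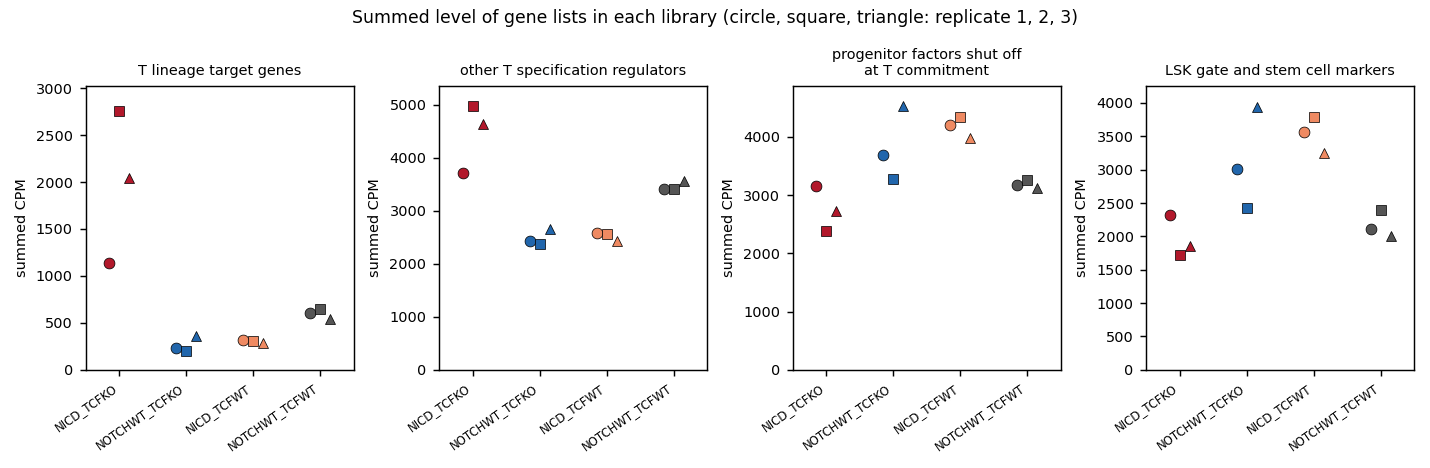
Summed CPM of 4 gene lists in each library, by labelled group; circle, square and triangle are replicates 1, 2 and 3. T lineage target genes reach 1137 to 2755 CPM in NICD_TCFKO and at most 646 CPM elsewhere, while the sum of LSK gate and stem cell markers is higher in NOTCHWT_TCFKO and NICD_TCFWT than in NICD_TCFKO.

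Markers of other cells moved with the groups as well. These lists share genes with the earlier ones, so their counts are not independent. Among others, the mature T cell markers Cd3e, Cd3d and Cd3g are also T lineage target genes. The LSK markers Kit and Flt3 are also among the progenitor factors. LSK gate and stem cell markers summed to 1723 to 2328 CPM in NICD_TCFKO, 2429 to 3945 in NOTCHWT_TCFKO, 3251 to 3795 in NICD_TCFWT and 2009 to 2402 in NOTCHWT_TCFWT, and Kit itself was present in all groups, at 644 ± 55.2, 812 ± 150, 787 ± 52.2 and 789 ± 27.2 CPM. Of the 12 tested genes of this list, 5 were lower and none higher in NICD_TCFKO than in NICD_TCFWT (12.4% of all tested genes called). Against NOTCHWT_TCFKO 4 were lower and 2 higher (18.4%), and against wild type none of the 12 was called (6.30%). The 5 became 2 without any 1 of the NICD_TCFWT libraries or NICD_TCFKO 3 and 3 without NICD_TCFKO 2, and the 4 became 1 without NICD_TCFKO 3 and 2 without NOTCHWT_TCFKO 1. The 2 higher ones were Ly6a, the Sca1 gene of the gate, with 102 ± 23.8 CPM in NICD_TCFKO and 37.5 ± 7.24 CPM in NOTCHWT_TCFKO (log2 1.44 ± 0.25, edgeR adjusted p = 0.00373), and Cd48 (1.09 ± 0.17, 0.00201). The 11 mature T cell markers summed to 768.5 to 1286 CPM in NICD_TCFKO, 311.8 to 368.2 in NOTCHWT_TCFKO, 292.2 to 409.7 in NICD_TCFWT and 650.5 to 741.9 in NOTCHWT_TCFWT. Of the 9 tested, 7 were higher in NICD_TCFKO than in NICD_TCFWT and none lower (12.4% of all tested genes called). Against NOTCHWT_TCFKO 4 were higher and 1 lower (18.4%), and against wild type 5 were higher and none lower (6.30%). The 7 became 4 without any 1 of the NICD_TCFWT libraries or NICD_TCFKO 3, and 3 without NICD_TCFKO 2. The receptor gene Cd3e was at 3.88 to 28.6 CPM in NICD_TCFKO and at most 1.73 CPM elsewhere. Trbc2, a T cell receptor constant segment, had 173 ± 83.7 CPM in NICD_TCFKO and 136 ± 13.9 CPM in wild type (log2 0.35 ± 0.56, edgeR adjusted p = 0.780), and at most 1.49 CPM in a library of the other groups. Cd4, the co-receptor gene, was lower in NICD_TCFKO, at 3.08 to 3.58 CPM, than in NOTCHWT_TCFKO, at 6.13 to 9.29 CPM (-1.21 ± 0.25, edgeR adjusted p = 0.00897). It was higher in NICD_TCFKO than in wild type (1.49 ± 0.26, edgeR adjusted p = 0.00909). Its difference from NICD_TCFWT did not pass (-0.34 ± 0.25, edgeR adjusted p = 0.406). Markers of NK and innate lymphoid cells, which also use Gata3, Tox, Ets1 and Runx3, summed to 303.6 to 407.9 CPM in NICD_TCFKO, 59.3 to 99.4 in NOTCHWT_TCFKO, 68.4 to 88.2 in NICD_TCFWT and 637.7 to 1458 in NOTCHWT_TCFWT. In NICD_TCFKO this sum thus lay above both single-label groups, as Gata3 and Ets1 did, and below wild type. Gene by gene the 11 tested were mixed. Against wild type 2, Zbtb16 and Klrb1c, were higher and 1, Gzmb, lower (6.30% of all tested genes called), with a median log2 difference of 0.72. Gzmb itself differed by -2.37 ± 0.44 (edgeR adjusted p = 0.0158). Against NICD_TCFWT 4 were higher and none lower (12.4%), with a median of 0.07. Against NOTCHWT_TCFKO 4 were higher and 1 lower (18.4%), with a median of 1.13. The count of higher genes against NICD_TCFWT became 1 without any 1 of its libraries or NICD_TCFKO 2, and 2 without NICD_TCFKO 3. Against NOTCHWT_TCFKO it became 1 without NOTCHWT_TCFKO 1 or 3, and 2 without NICD_TCFKO 2, NICD_TCFKO 3 or NICD_TCFWT 1; the 1 lower gene became 2 without NOTCHWT_TCFKO 3 and 3 without NOTCHWT_TCFWT 2. Macrophage markers were at 311 to 437.3 CPM in NOTCHWT_TCFKO and at most 44.7 CPM in the other groups. Granulocyte and monocyte markers summed to 457.1 to 1383 CPM in NICD_TCFKO, 1646 to 9272 in NOTCHWT_TCFKO, 1740 to 6366 in NICD_TCFWT and 152.1 to 288.4 in NOTCHWT_TCFWT. The part of any of these cells in the levels of the 9 genes was not tested.

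Within the 12 libraries, the genes most like each factor were ranked by Pearson r of log2 CPM over 9877 genes. This is a description only, since the libraries share groups. For Gata3, Bcl11b and Ets1 the 3 libraries labelled NICD_TCFKO carry most of the range. Gata3 was most like Cd5 (0.971), Tspan2 (0.968) and Arhgef10l (0.962), and Bcl11b most like Grap2 (0.959), Itgax (0.95) and Fam169b (0.948). Ets1 was most like Endou (0.962), Tcf12 (0.956) and Cd163l1 (0.952), Tox most like Mllt11 (0.974), Cc2d1b (0.97) and Carmil2 (0.969), and Runx1 most like Ppil4 (0.969), Ptger4 (0.966) and Ston2 (0.961). Ets2, the factor that stood apart from Ets1, was most like Lrrc49 (0.987), Raver2 (0.979) and Ccdc149 (0.977). The 3 factors without a call had looser matches, led by Map4k1 for Runx3 (0.892), Thumpd3 for Myb (0.911) and Zfp563 for Satb1 (0.903). Among the 9 themselves Gata3 and Ets1 had an r of 0.911, Bcl11b and Ets1 0.873, and Gata3 and Ets2 -0.668.

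By position on mm10 (GENCODE M21 models), Gata3 lies on chr2:9857078-9890034, Bcl11b on chr12:107910403-108003602, Tox on chr4:6686353-6991557, Ets1 on chr9:32636221-32757820, Ets2 on chr16:95702075-95721051, Runx1 on chr16:92601466-92826149, Runx3 on chr4:135120652-135177990, Myb on chr10:21124935-21160984 and Satb1 on chr17:51736187-51833290. Genes that overlap the exons of Gata3, Tox, Runx1 and Myb had counts of at most 1.91% of theirs in any library, the highest share being that of an antisense transcript at Gata3. Those that overlap Satb1 were not analysed here.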

How the data were processed

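RNA from 12 libraries of sorted mouse LSK cells was sequenced as single-end reads of 75 nt, per the labels' protocols. The submitters' processing notes name the mm10 build and, as tools, edgeR 3.28.0, limma, featureCounts 1.4.4, HISAT2, cutadapt 1.9.1 and bcl2fastq 2.17; their roles, the annotation and the strand setting are not given in the sources used here. The authors deposited raw counts per gene for each library, equal in all 12 to their table for the series, and a second deposited table of normalised log2 values that served only as an alternative.

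Symbols were taken from GENCODE M21 and matched 37607 of 39017 genes. Counts were filtered with filterByExpr, which left 16024 genes, scaled by TMM and fitted over all 12 libraries with 1 mean per group in edgeR 4.0.16 (R 4.3.3, quasi-likelihood F test, two-sided, Benjamini-Hochberg adjusted p under 0.05 over all tested genes). CPM is the count relative to the scaled library size, and a count of 3 in the shallowest library is 0.099 CPM. Intervals cover the fitted spread only, and they use a normal quantile, which makes them narrower than the F test would. SE was obtained by dividing the log2 fold change by √F. Since separate animals are not stated, a p-value here measures no more than the spread among these samples, which may be in part technical. Y-linked transcripts and Xist differed within NICD_TCFKO, NOTCHWT_TCFKO and NICD_TCFWT, so the libraries of these groups are not all technical repeats of a single sample. No pair of libraries agreed within sampling noise. Alternatives were RLE scaling, other filters, DESeq2 1.42.0, limma-voom (limma 3.58.1), a replicate block, a fit limited to the groups compared, the log2 table, Y-linked transcripts as a covariate, and leaving out each library.

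The 9 genes and the gene lists were chosen with earlier results of these data known. Genes named from a list were up to 4 per contrast with the smallest p among those called, plus Tcf7, Notch1, Hes1 and Dtx1; Kit, Ly6a, Cd48, Cd3e, Trbc2 and Cd4 were named after their values were seen. The genes most like a factor had a mean of at least 5 CPM, without predicted, receptor segment or sex-linked genes. List counts under the alternatives were added after seeing the data. Promoter sequences are RefSeq's on GRCm38.p6.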

Additional observations from a re-analysis of the deposited data

Results flagged for a closer look

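For 6 of the 9 genes the effect of labelled Tcf7 loss differed between libraries labelled with N1IC and libraries not so labelled, by edgeR's test of the difference itself. Of all tested genes 27.4% passed the same test. The log2 interaction was 2.67 for Gata3, 7.26 for Bcl11b, 1.45 for Tox, 2.02 for Ets1, -0.81 for Ets2 and 1.12 for Runx1. Of 20 alternatives, 10 lost the call for Tox, 2 that for Bcl11b and 1 that for Ets2. With 3 libraries a group, single libraries were not tested as outlying. Tcf7 was highest in the libraries labelled with its loss and N1IC (603 ± 300 CPM), against 5.50 ± 1.11 CPM in those labelled with N1IC alone (SD, n = 3 each), and the genotype behind each label was not tested.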

How the results depend on the processing

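Over 21 alternatives, 1314 values of the 9 genes were recomputed: 1254 kept their direction and their side of the threshold, 23 without a call changed sign and stayed without one, 28 lost their call, 9 gained one and no called value reversed. Unless a value above shows it, the cause was not tested. The number of the 9 called with only the groups of the contrast was 2 in NICD_TCFWT against NOTCHWT_TCFWT and 1 in NICD_TCFKO against NOTCHWT_TCFKO, and with DESeq2 it was 2 in NOTCHWT_TCFKO against NOTCHWT_TCFWT. Genes called overall went to 3186 with DESeq2 in NICD_TCFKO against NICD_TCFWT (1986 as reported), to 1177 with only the groups in NICD_TCFKO against NOTCHWT_TCFKO (2942), and to 2025 with DESeq2 and 480 with only the groups in NICD_TCFKO against NOTCHWT_TCFWT (1010). In NOTCHWT_TCFKO against NICD_TCFWT (460) they were 1655 with DESeq2, 291 with the replicate block and 802 with the covariate for Y-linked transcripts. Leaving out 1 library gave 917 to 2688 genes for NICD_TCFKO against NICD_TCFWT, 1610 to 3302 against NOTCHWT_TCFKO and 368 to 1285 against NOTCHWT_TCFWT. It gave 2201 to 3847 for NOTCHWT_TCFKO against NOTCHWT_TCFWT (3413), 161 to 2065 for NOTCHWT_TCFKO against NICD_TCFWT, 2024 to 3644 for NICD_TCFWT against NOTCHWT_TCFWT (3263) and 3545 to 4660 for the interaction (4389). Of the 9, it called 4 to 5, 3 to 6 and 1 to 3 in the first 3 of these, then 1 to 2, 0 to 1, 1 to 2 and 4 to 6. Libraries with the same number did not deviate together: of 18 such pairs 6 had an r over 0.1, in a range of -0.404 to 0.451. The replicate block called 5 of the 9 for the interaction, without Tox (adjusted p = 0.0662), and as many as reported in each pairwise contrast. Depth limits only Bcl11b, whose counts were between 0 and 37 in 9 libraries.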
